A study of Mus musculus with 4 samples.

Results

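Interferon regulatory factors (IRFs), signal transducers and activators of transcription (STATs) and the chains of the type I interferon receptor were described here through 9 genes, Irf1, Irf2, Irf3, Irf7, Irf9, Stat2, Stat3, Ifnar1 and Ifnar2, taken by symbol from a table of 19171 genes. All 9 were listed, and all 9 passed the filter on low values. RNA came from cells of the calvaria (the bones of the skull vault) of C57BL/6 mice at postnatal day 10, released with collagenase and grown in culture. Every library carried the genotype mir17fl/fl:106b-/-, that is, loxP sites around the miR-17 cluster and a germline loss of the miR-106b cluster. There were 2 libraries of cells infected with an adenovirus carrying Cre, the recombinase that removes DNA between loxP sites, and 2 of cells infected with an adenovirus carrying YFP, a fluorescent protein, with RNA taken 3 days later. The labels give an infection rate above 80%, so some cells of the Cre group may still carry the cluster. The groups differ in the viral insert as well as in the intended deletion, and these cannot be told apart.

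Type I interferons bind a receptor made of the IFNAR1 and IFNAR2 chains, whose kinases JAK1 and TYK2 phosphorylate STAT proteins. STAT2 then acts with IRF9 in the complex ISGF3, which binds interferon-stimulated response elements (ISREs) and switches on antiviral genes, Irf7 among them. IRF3 is present before infection and, with IRF7, turns on interferon genes once a nucleic acid sensor has been triggered, while IRF1 activates and IRF2 often represses overlapping sets of genes and STAT3 serves cytokines of the interleukin-6 family.

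The mature miRNAs of both clusters are shown because their seeds, bases 2 to 8 in capitals, define the matches sought in the members. The first 6 belong to the floxed cluster and the last 3 to the cluster missing from both groups (RefSeq, GRCm38.p6).
miR-17-5p: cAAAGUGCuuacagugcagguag
miR-18a-5p: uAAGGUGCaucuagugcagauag
miR-19a-3p: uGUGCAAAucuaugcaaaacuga
miR-20a-5p: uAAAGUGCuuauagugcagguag
miR-19b-3p: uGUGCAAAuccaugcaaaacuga
miR-92a-3p: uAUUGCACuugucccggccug
miR-106b-5p: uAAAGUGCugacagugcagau
miR-93-5p: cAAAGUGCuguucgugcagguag
miR-25-3p: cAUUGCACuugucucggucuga
They fall into 4 seed families. The miR-17 family holds 4 of them (miR-17, miR-20a, miR-106b and miR-93), the miR-19 family 2, the miR-92 family 2 (miR-92a and miR-25) and the miR-18 family 1.

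In the longest annotated 3′ UTR of each member (GENCODE M21), 4 of the 9 genes held a match to a seed and 5 (Irf1, Irf3, Irf7, Ifnar1 and Ifnar2) held none. The matches are printed with the site complementary to bases 2 to 8 in capitals.
Irf9, miR-17 family: tctaaatctaaGCACTTTatatattttat
Stat2, miR-19 family: gcatcatttctTTTGCACagtgttttgtt
Irf2, miR-18 family: gggctgcttctGCACCTTatcttgaagca
Stat3, miR-17 family, first: gggcaatctggGCACTTTttaaaatagag
Stat3, miR-17 family, second: ctcctggctctGCACTTTcaaccttgcta
Stat3, miR-18 family: ctttcattcttGCACCTTctttccccaag
The Irf9, Stat2 and Irf2 sites are followed by an A and the 3 Stat3 sites are not. Of coding transcripts with an annotated 3′ UTR, 3 of 3 hold the Irf9 site and 2 of 2 the Stat2 site. The Irf2 site is in 1 of 2. For Stat3, a miR-17 family site is in 3 of 4 and the miR-18 family site in 1 of 4. A GCACTTT was found in 11.72% of 20979 genes with a 3′ UTR and a TTTGCAC in 11.39%. A GCACCTT was found in 7.80% and a GTGCAAT, the miR-92 site, in 6.55%. The share holding any of the 4 sites was not computed, so the count of 4 in 9 members cannot be compared with these shares. A match is a description of the letters and does not show that the miRNA acts there.

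With Cre, the genes for the factor induced by interferon and for the DNA-binding and STAT2 subunits of ISGF3 were higher, the gene for IRF3 was lower, and the other 5 members did not pass the test. Irf7 rose 2.79-fold, Irf9 1.55-fold and Stat2 1.45-fold as ratios of mean FPKM (fragments per kilobase of transcript, scaled to the mapped reads of the library), and Irf3 fell to 0.721 of its YFP mean. The test was limma on log2(FPKM + 1), which understates the change of low genes, with Benjamini-Hochberg adjustment over 12046 tested genes and a threshold of 0.05. By that rule 4 of the 9 members were called, 3 higher and 1 lower, beside 32.9% of all tested genes called, 16.6% higher and 16.3% lower. The median log2 change was 0.13 over the members and -0.01 over all tested genes. The FPKM ranges of the groups did not overlap in 7 members, beside 66.9% of all tested genes. The labels do not state whether replicate libraries were grown as separate cultures, so the p-values measure only how far these libraries spread, which can be technical. In bulk samples such as these, fewer cells of a type and less RNA per cell cannot be told apart.

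**Figure D1:**
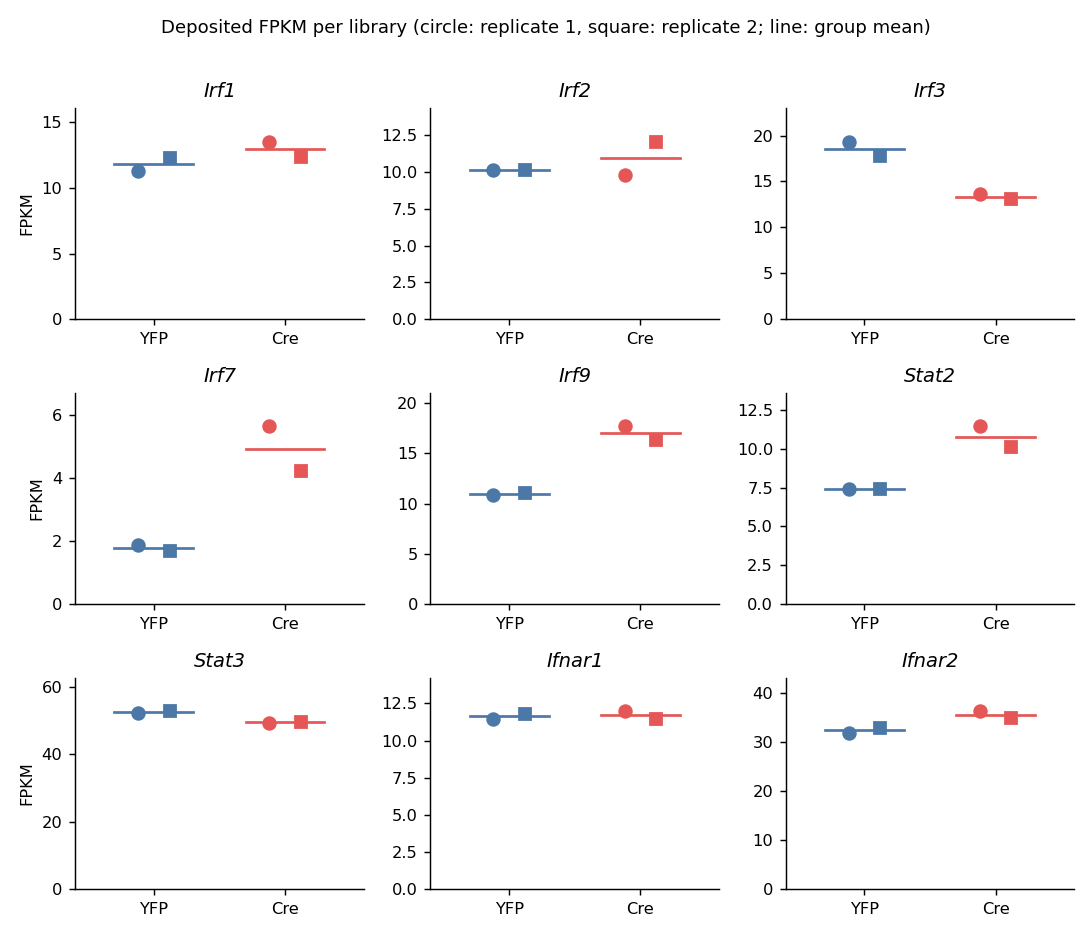
FPKM of the 9 members in each library, on linear axes that start at 0 and differ between panels (circle for replicate 1, square for replicate 2, line for the mean of 2 libraries). The Cre libraries lie above both YFP libraries for Irf7, Irf9 and Stat2 and below both for Irf3, while the groups overlap for Irf2 and Ifnar1.

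The inducible factor came first in size of change. Irf7 (Entrez 54123), which encodes the factor that amplifies type I interferon production, was listed at 1.87 and 1.67 FPKM in the YFP libraries and at 5.63 and 4.23 FPKM in the Cre libraries. Both Cre values were above both YFP values, and the Cre libraries stood further apart from each other than the YFP libraries did. The means were 1.77 ± 0.14 and 4.93 ± 0.99 FPKM (SD, n = 2), and the log2 change was 1.09 (SE 0.11, limma adjusted p = 0.000136). Irf7 lies at chr7:141263183-141266499 of GRCm38.p6, and no exon of it overlapped an exon of another gene in GENCODE M21.

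Irf9 (Entrez 16391), which encodes the DNA-binding subunit of ISGF3, measured 10.91 and 11.03 FPKM with YFP and 17.69 and 16.30 FPKM with Cre. The groups did not overlap and the YFP libraries were nearly equal. The log2 change was 0.59 (SE 0.06, limma adjusted p = 3.38e-05). Of its exonic bases at chr14:55603985-55610030, 3.97% are shared with exons of the neighbouring gene Rnf31 on the same strand, which was itself not called (log2 change -0.09, limma adjusted p = 0.358).

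Stat2 (Entrez 20847), which encodes the STAT that is particular to type I and type III interferon signalling, was listed at 7.41 FPKM in both YFP libraries and at 11.44 and 10.11 FPKM in the Cre libraries. Both Cre values were above the YFP value. The log2 change was 0.48 (SE 0.07, limma adjusted p = 0.00031). Its exons overlapped no other gene's exons at chr10:128270498-128292853.

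Irf3 (Entrez 54131), which encodes the factor that the kinase TBK1 activates, measured 19.35 and 17.73 FPKM with YFP and 13.67 and 13.05 FPKM with Cre. Both Cre values were below both YFP values. With limma, Irf3 fell by 0.44 (log2, SE 0.06, adjusted p = 0.000235), and it was the only called member that was lower. Irf3 and Irf7, whose products share the task of switching on interferon genes, were thus called in opposite directions. Irf3 lies at chr7:44997648-45002848 on the same chromosome as Irf7, and its exons overlapped no other gene's exons.

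Irf1 and Irf2 did not pass the test. Irf1 (Entrez 16362), a factor that interferon-γ induces, measured 11.33 and 12.28 FPKM with YFP and 13.54 and 12.40 FPKM with Cre. The Cre values were both the higher ones, but the gap between the groups was smaller than the spread within either. The log2 change was 0.13 with a 95% interval from -0.01 to 0.26 (limma adjusted p = 0.15). Irf2 (Entrez 16363) measured 10.17 and 10.11 FPKM with YFP and 9.80 and 12.07 FPKM with Cre. Its YFP values lay between its Cre values, so that Cre replicate 2 alone was high. The log2 change was 0.09 with an interval from -0.10 to 0.28 (limma adjusted p = 0.443), and it was -0.04 without Cre replicate 2.

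Stat3 (Entrez 20848), the member with the highest level in both groups, measured 52.44 and 52.83 FPKM with YFP and 49.36 and 49.70 FPKM with Cre. The groups did not overlap, yet the difference was small and did not pass the test (log2 change -0.09, 95% interval -0.18 to 0.01, limma adjusted p = 0.156). Stat3 held 3 of the 6 seed matches, in a 3′ UTR of 3701 bases, against 502 to 2030 bases for the other members. Irf9 and Stat2, each with 1 match, were called higher, Irf2 with 1 match was not called, and Irf7, the member with the largest change, held none. Whether the matches bear on these changes was not tested.

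The receptor genes did not pass the test. Ifnar1 (Entrez 15975) measured 11.48 and 11.76 FPKM with YFP and 11.97 and 11.44 FPKM with Cre, and the groups overlapped. The log2 change was 0.01 with an interval from -0.11 to 0.13 (limma adjusted p = 0.917), and its sign turned without YFP replicate 1 or without Cre replicate 1 (-0.01 and -0.02). Ifnar2 (Entrez 15976) measured 31.80 and 32.84 FPKM with YFP and 36.21 and 34.76 FPKM with Cre. Its groups did not overlap, and its log2 change of 0.13 (interval 0.03 to 0.24, which is not adjusted for the number of genes tested) came close to the threshold (limma adjusted p = 0.055). It passed when only genes with a mean of at least 5 FPKM were tested (limma adjusted p = 0.0452). The pair are neighbours, Ifnar2 at chr16:91372783-91405589 and Ifnar1 at chr16:91485032-91510523, and 9.92% of the exonic bases of Ifnar2 are shared with the same-strand model Gm21970.

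FPKM is scaled to transcript length, so levels can be ordered across genes. In the YFP libraries the mean FPKM ran from Stat3 (52.6) through Ifnar2 (32.3), Irf3 (18.5), Irf1 (11.8), Ifnar1 (11.6), Irf9 (10.97), Irf2 (10.1) and Stat2 (7.41) to Irf7 (1.77). Of these neighbours, Irf1 and Ifnar1 could not be ordered beyond their spread. With Cre the order was Stat3 (49.5), Ifnar2 (35.5), Irf9 (17.0), Irf3 (13.4), Irf1 (13.0), Ifnar1 (11.7), Irf2 (10.9), Stat2 (10.8) and Irf7 (4.93). Irf9 was in sixth place with YFP and in the third with Cre, where it stood above Irf3. With Cre the ranges of Irf3 and Irf1 overlapped, as did those of Ifnar1 and Irf2 and those of Irf2 and Stat2, so these neighbours could not be ordered beyond their spread.

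Among the other genes of both families, changes were smaller than those of Irf7. Among other STAT genes, Stat6 was called lower and Stat5a and Stat5b were not called (log2 changes of -0.07 and -0.16). Stat6, the STAT of interleukin-4 signalling, measured 28.83 and 27.85 FPKM with YFP and 24.09 and 25.79 FPKM with Cre (log2 change -0.18, limma adjusted p = 0.0214). Stat6 no longer passed when YFP replicate 1 (adjusted p = 0.0681), Cre replicate 1 (0.196) or Cre replicate 2 (0.0548) was left out, when no filter was used (0.0604), or without trend and robust estimation (0.0616). Stat4 reached at most 0.12 FPKM. Irf5, a factor of myeloid cells, passed the filter and was not called, with a log2 change of 0.23 (limma adjusted p = 0.0559), a value that passed without trend and robust estimation (adjusted p = 0.0337). Irf4 and Irf8, which are best known from lymphocytes and myeloid cells, stayed at or below 0.30 FPKM in every library. The 3 corepressors that bind IRF2 (Irf2bp1, Irf2bp2 and Irf2bpl) had log2 changes from -0.02 to 0.09, and none was called.

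**Figure D2:**
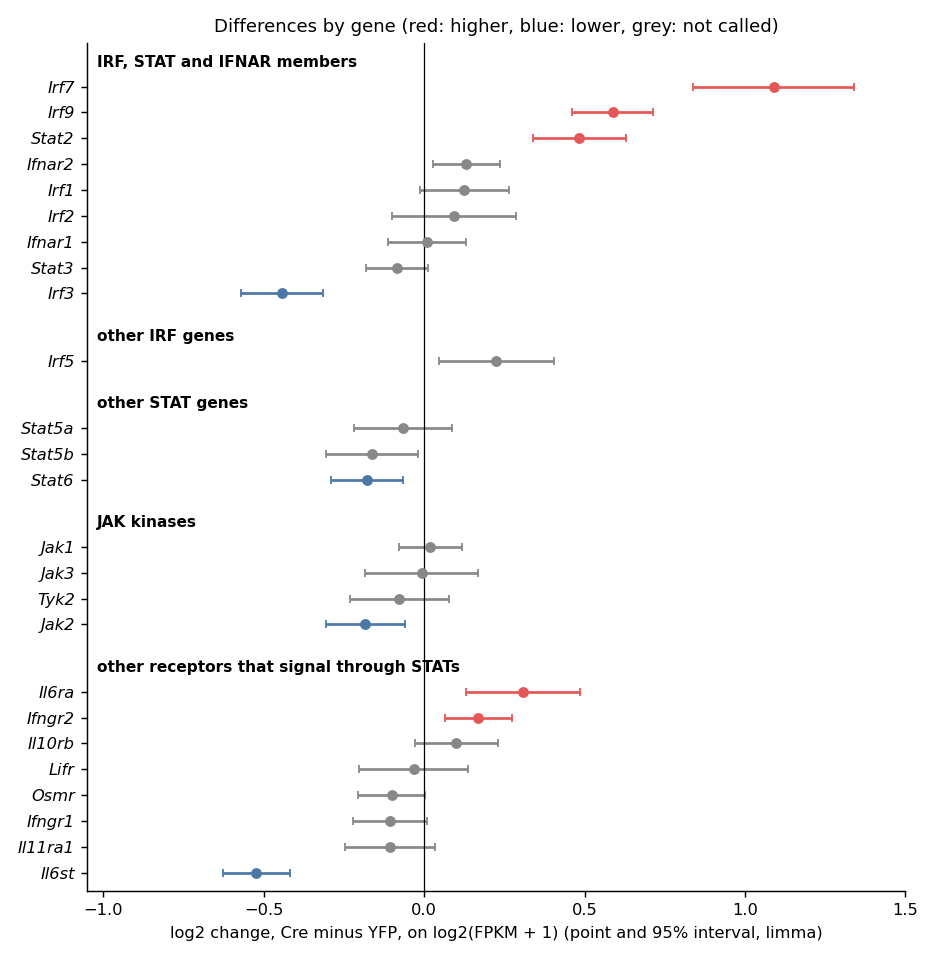
Log2 change (Cre minus YFP, on log2(FPKM + 1)) with its 95% interval from limma for the 9 members and for Irf5, Stat5a, Stat5b, Stat6, the JAK kinases and the tested genes of other STAT-coupled receptors. Irf7 (1.09), Irf9 (0.59) and Stat2 (0.48) lie furthest to the right of 0, and Il6st (-0.52) and Irf3 (-0.44) lie furthest to the left.

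Upstream of the members, interferon genes themselves were near the bottom of the table. Of 20 interferon ligand genes, 6 were listed, and none passed the filter. Ifnb1, which encodes interferon-β, was listed at 0 in both YFP libraries and at 0.04 and 0 FPKM in Cre replicates 1 and 2. Ifna11, Ifne and Ifng showed the same pattern, at 0.04, 0.08 and 0.02 FPKM in Cre replicate 1 and at 0 in the other 3 libraries. Ifna13 was listed at 0.07 and 0.03 FPKM with Cre and at 0 in both YFP libraries. The Ifna genes are near-identical copies, so reads may be divided among them. Ifnz, the only ligand gene listed above 0 with YFP, was at 0.72 and 0.13 FPKM there and at 0.26 and 0.24 FPKM with Cre. Over the whole table, 17452 and 17445 genes were above 0 in the YFP libraries and 17952 and 17891 in the Cre libraries. No gene was listed at 0 in every library. No read counts came with the FPKM values, so no floor can be given for the zeros.

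Of the 4 JAK kinase genes, Jak1 (log2 change 0.02), Tyk2 (-0.08) and Jak3 (-0.01) were not called. Jak2, the kinase of the interferon-γ and growth hormone receptors, went from 12.11 and 12.70 FPKM with YFP to 10.97 and 10.64 FPKM with Cre and was called lower (log2 change -0.18, limma adjusted p = 0.0267). Jak2 no longer passed when no filter was used (adjusted p = 0.0582) or when YFP replicate 2 (0.102), Cre replicate 1 (0.0902) or Cre replicate 2 (0.175) was left out. Of 9 genes for kinases and adaptors that activate IRF3 and IRF7, 3 were called higher and 0 lower, beside 16.6% of all tested genes called higher and 32.9% called in either direction. Tbkbp1, which encodes an adaptor that binds TBK1, measured 3.12 and 3.45 FPKM with YFP and 6.19 and 6.40 FPKM with Cre (log2 change 0.77, limma adjusted p = 2.05e-05). Traf3 and Irak1 rose by less (0.25 and 0.18), and neither passed when Cre replicate 1 was left out (adjusted p = 0.133 and 0.176), which left 1 gene of the list called. Traf3 also missed the threshold in the fit lacking YFP replicate 2 (0.0595), and Irak1 in those lacking YFP replicate 1 (0.113) or Cre replicate 2 (0.0954), with no filter (0.066) and without trend and robust estimation (0.0617). Tbk1 itself was not called (log2 change 0.05), nor were Ikbke (0.20), Tank (-0.01), Azi2 (-0.03), Irak4 (0.03) and Myd88 (0.00452).

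Of 9 other receptor genes that couple to STATs, 8 passed the filter, 2 were called higher and 1 lower, beside 16.6% and 16.3% of all tested genes. Il6st, which encodes gp130, the shared receptor chain through which the interleukin-6 family activates STAT3, measured 98.26 and 98.93 FPKM with YFP and 70.34 and 66.34 FPKM with Cre. With limma it fell by 0.52 (log2, adjusted p = 1.97e-05), the largest fall among the genes of these lists. Il6ra, the interleukin-6 binding chain, went from 1.29 and 1.18 FPKM to 1.82 and 1.71 FPKM and was called higher (log2 change 0.31, limma adjusted p = 0.0137). Il6ra did not pass when YFP replicate 2 (adjusted p = 0.0638), Cre replicate 1 (0.102) or Cre replicate 2 (0.0704) was left out. Ifngr2, a chain of the interferon-γ receptor, was called higher by 0.17 (limma adjusted p = 0.0197). Ifngr2 did not pass when YFP replicate 1 (adjusted p = 0.0624), Cre replicate 1 (0.0578) or Cre replicate 2 (0.202) was left out, when no filter was used (0.0536), or without trend and robust estimation (0.0623). Leaving out either Cre library therefore left 0 receptor genes called higher, and leaving out YFP replicate 2 gave 2 called lower. Ifngr1, Il10rb, Lifr, Osmr and Il11ra1 were not called, with log2 changes from -0.11 to 0.10.

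Downstream, most tested genes known to be induced through ISGF3 were called higher. Of 27, 20 passed the filter and 19 of those were called higher and 0 lower, beside 16.6% of all tested genes called higher. Their median log2 change was 0.90. Oas1a, a called gene named after its values were seen, passed the filter only through the Cre group. It measured 0.33 and 0.14 FPKM with YFP and 1.42 and 1.29 FPKM with Cre. Because genes that are high only with Cre pass the filter through that group, the count of 19 does not speak for all 27. Zbp1, a nucleic acid sensor, measured 3.60 and 3.23 FPKM with YFP and 13.46 and 12.33 FPKM with Cre (log2 change 1.65, limma adjusted p = 1.27e-07). Lgals3bp, a secreted galectin-binding glycoprotein, was the most abundant of the list and went from 82.56 and 82.45 FPKM to 155.36 and 145.95 FPKM (log2 change 0.86). Xaf1, a pro-apoptotic gene, and Parp9, an ADP-ribosyltransferase family gene, rose by 1.17 and 0.78. The 1 tested gene that was not called was Ifi44, named here after its values were seen, at 3.88 and 3.72 FPKM with YFP and 11.33 and 6.79 FPKM with Cre (log2 change 1.03, limma adjusted p = 0.123).

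Of 15 genes known as targets of IRF1 or of interferon-γ, 9 passed the filter, and 8 of those were called higher and 0 lower. Over all tested genes, 16.6% were called higher. The median log2 change of the 9 was 0.43. Nlrc5, a called gene named after its values were seen, passed the filter only through the Cre group. It measured 0.85 and 0.80 FPKM with YFP and 1.61 and 1.30 FPKM with Cre. Like that of the ISGF3 list, this count therefore does not speak for all 15. Irf1 itself was not called. The genes called higher included Psmb8 and Psmb10 (log2 changes of 0.63 and 0.49), which encode immunoproteasome subunits. Also called were the class I light chain gene B2m (0.38) and the guanylate-binding protein gene Gbp2 (0.40). Among genes with a mean of at least 5 FPKM, 5 were called, but Psmb8 and Nlrc5 were not tested there, so fewer genes could be called. Fewer were also called in the fit without Cre replicate 1, as was the case over all tested genes. The 1 tested gene not called was the chemokine gene Cxcl10, also named after its values were seen, at 1.76 and 2.95 FPKM with YFP and 4.22 and 3.95 FPKM with Cre (log2 change 0.62, limma adjusted p = 0.0687).

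Of 11 genes known as STAT3 targets, 10 passed the filter, and 6 were called higher and 0 lower, beside 16.6% of all tested genes called higher. The median log2 change was 0.21 over the list and -0.01 over all tested genes. Icam1, an adhesion molecule gene that NF-κB also drives, went from 14.94 and 14.55 FPKM to 27.34 and 28.57 FPKM (log2 change 0.88, limma adjusted p = 9.70e-07). Timp1, an inhibitor of matrix metalloproteinases, rose by 0.51, and the AP-1 gene Junb and the kinase gene Pim1 by 0.36 each. Pim1 did not pass in the fit that left out Cre replicate 2 (adjusted p = 0.0876). Socs3, the feedback inhibitor of gp130 signalling, was not called, at 7.65 and 8.21 FPKM with YFP and 8.95 and 9.11 FPKM with Cre (log2 change 0.17, limma adjusted p = 0.0517). It passed among genes with a mean of at least 5 FPKM (adjusted p = 0.0437) and without YFP replicate 2 (adjusted p = 0.036).

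Of 13 negative regulators of JAK and STAT signalling, 12 passed the filter, 2 were called higher and 0 lower, a share close to the 16.6% of all tested genes called higher. Usp18, an ISGF3-induced inhibitor that acts at IFNAR2, measured 1.20 and 1.53 FPKM with YFP and 4.92 and 3.82 FPKM with Cre (log2 change 1.18, limma adjusted p = 7.99e-05). Ptpn1, which encodes a phosphatase of JAK2 and TYK2, rose by 0.27 (limma adjusted p = 0.0027), and did not pass in the fit lacking Cre replicate 2 (adjusted p = 0.0547), where 1 gene of the list was called. Cish was not called (log2 change 0.26, limma adjusted p = 0.0655). It passed when YFP replicate 2 was left out (adjusted p = 0.0116). Leaving out either YFP library raised the number called higher from 2 to 4.

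**Figure D3:**
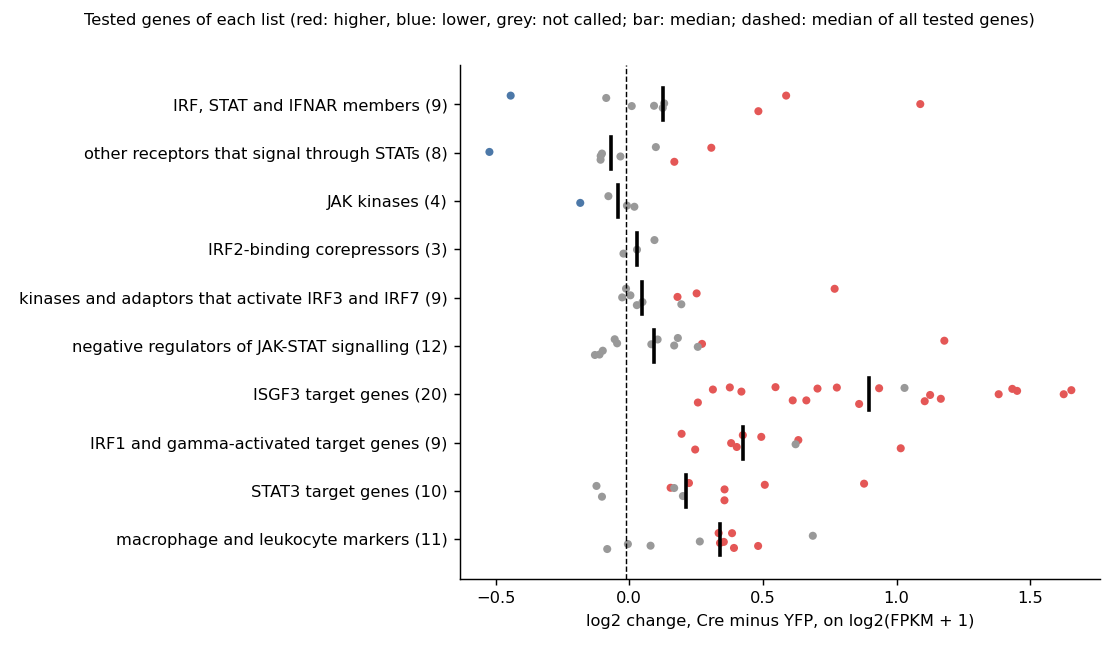
Log2 change (Cre minus YFP, on log2(FPKM + 1)) of every tested gene in each list shown, with the number tested in brackets, a bar at the list's median and a dashed line at the median of all tested genes (-0.01). The medians of the ISGF3 targets (0.90) and of the IRF1 and gamma-activated targets (0.43) lie furthest to the right, and the JAK kinases have a median of -0.04.

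The libraries of the Cre group differed from each other in these genes. All 20 tested ISGF3 targets were higher in Cre replicate 1 than in Cre replicate 2, with a median difference of 0.21 on the log2(FPKM + 1) scale, as were 9 of 9 IRF1 and gamma-activated targets. Among all tested genes 50.7% were higher in Cre replicate 1. Of the members, 7 of 9 were higher in Cre replicate 1, Irf2 and Stat3 being the exceptions, and Irf7 stood 1.33 times as high there. The STAT3 targets went the other way, with 2 of 10 higher in Cre replicate 1. In the YFP group 9 of 20 ISGF3 targets were higher in replicate 1. The Cre calls of Irf7, Irf9, Stat2 and Irf3 were made in every fit that left out 1 library, with log2 changes from 0.92 to 1.26 for Irf7.

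**Figure D4:**
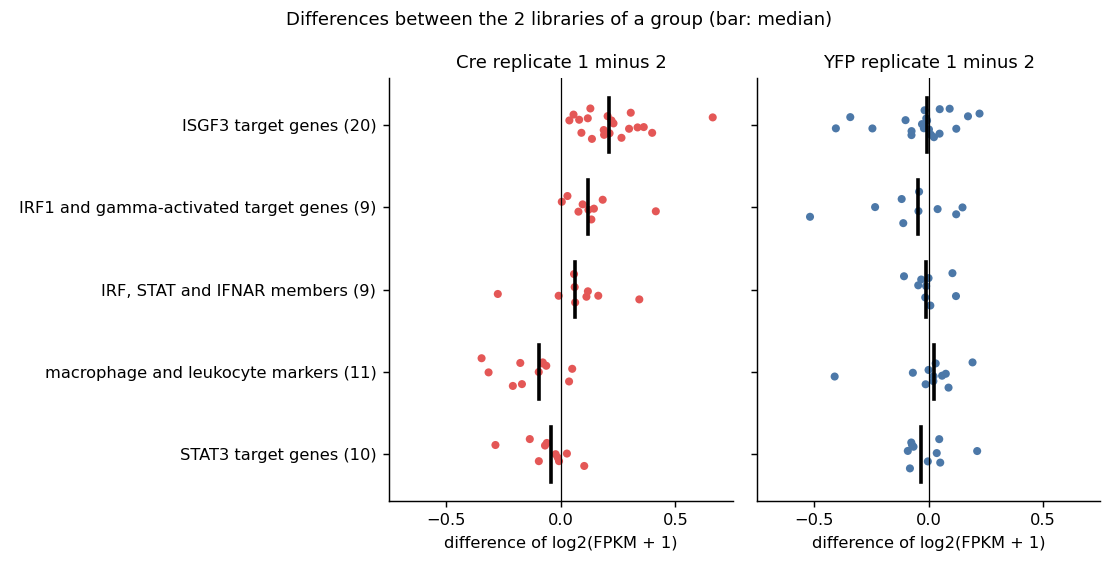
Difference of log2(FPKM + 1) between replicates 1 and 2 of the Cre group (left) and of the YFP group (right) for each tested gene of 5 lists, with a bar at the median. All 20 ISGF3 targets lie to the right of 0 in the Cre group and 9 of 20 in the YFP group, while 2 of 11 macrophage and leukocyte markers lie to the right in the Cre group.

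Some markers of macrophages and other leukocytes, cells that respond strongly to interferon and express Irf7 and Irf5, were called higher with Cre, as were Irf7, Irf9 and Stat2. Of 14, 11 passed the filter, with 6 called higher and 0 lower, beside 16.6% and 16.3% of all tested genes. The other 5, named after their values were seen, were not called, with log2 changes of 0.69 for Cd68, 0.26 for C1qa, 0.08 for Cd14, -0.00496 for C1qc and -0.08 for C1qb, whose Cre values were both below its YFP values. The summed level of all 14 was 110 and 107 FPKM with YFP and 140 and 151 FPKM with Cre. Lyz2, the myeloid lysozyme gene, made up most of that sum, at 79.81 and 75.07 FPKM with YFP and 99.07 and 104.77 FPKM with Cre. None of the 14 was at 0 in any library. Ptprc, the pan-leukocyte gene, ranged from 0.27 to 0.37 FPKM, and Siglech, a marker of plasmacytoid dendritic cells, from 0.01 to 0.06 FPKM. Cd79a and Nkg7, markers of B and NK cells, stayed at or below 0.49 and 0.17 FPKM, and of 5 endothelial markers 2 passed the filter and 0 were called. Within the Cre group 2 of 11 tested macrophage and leukocyte markers were higher in replicate 1, the library in which all 20 tested ISGF3 targets were higher. The part of these cells in the results was not tested.

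The culture expressed Col1a1 (1684 to 1778 FPKM), Spp1 (3126 to 3919 FPKM) and Runx2 (10.28 to 12.11 FPKM), genes of bone-forming cells. Of 7 such markers, 5 passed the filter, with 1 called higher and 0 lower, beside 16.6% and 16.3% of all tested genes. The called gene was Spp1 (log2 change 0.29, limma adjusted p = 0.00148). Of the same markers, Sp7 (1.81 to 2.43 FPKM) and Alpl (1.53 to 2.49 FPKM) were close to the filter of 1 FPKM. The mature osteoblast genes Bglap (at 0 with YFP and 1.27 and 0.91 FPKM with Cre) and Ibsp (0.39 to 0.63 FPKM) were low. FPKM summed to between 458756 and 471021 per library, Pearson's r over genes (not independent of each other) was 0.9967 to 0.9973 within groups and 0.9877 to 0.9893 between groups, and depth is unknown. None of the 9 miRNA genes of the clusters is among the listed genes. The host transcript Mir17hg was at 3.29 and 3.91 FPKM with YFP and 7.35 and 8.49 FPKM with Cre. It was called higher with Cre (log2 change 0.96, limma adjusted p = 3.62e-05), the direction opposite to a loss. These values therefore do not show the deletion. Whether the counted part of the transcript covers the deleted segment was not tested.

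Promoter sequence was read for all 9 members from 250 bases before to 50 after an annotated start (RefSeq, GRCm38.p6, with Irf1 and Irf9 having 2 windows each). The ISRE was searched as GAAANNGAAA, the IRF core as AANNGAAA, which lies within the ISRE, and the gamma-activated site (GAS) that STAT dimers bind as TTCNNNGAA, each on both strands. An ISRE match was found in Stat2 and Irf2, 2 of the 9 members, and in 3.44% of 32851 promoters, and an IRF core match in the same 2 members and in 23.92% of promoters. A GAS match was found in Irf1, Irf2, Ifnar1 and Ifnar2 and in 8.30% of promoters. Stretches of 60 bases around a match are shown for a called and a pair of uncalled members, with matched bases in capitals.
Stat2, chr10:128270251-128270310, plus strand: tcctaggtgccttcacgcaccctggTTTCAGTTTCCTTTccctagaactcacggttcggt
Irf2, chr8:46739495-46739554, plus strand: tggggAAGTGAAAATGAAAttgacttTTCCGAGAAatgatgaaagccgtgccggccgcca
Irf1, chr11:53769899-53769958, plus strand: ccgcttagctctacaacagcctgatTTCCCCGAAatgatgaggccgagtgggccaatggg
In Stat2 the ISRE reads on the minus strand and begins at position -222 from the start, and in Irf2 an ISRE and a GAS lie close together. Stat2 was called higher and Irf2 was not.

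The window of Irf7, the member with the largest change, is given whole because no match to these letters was found in it, nor in either Irf9 window. The absence says only that these letters are not in these 300 bases.
Irf7, chr7:141266375-141266674, minus strand: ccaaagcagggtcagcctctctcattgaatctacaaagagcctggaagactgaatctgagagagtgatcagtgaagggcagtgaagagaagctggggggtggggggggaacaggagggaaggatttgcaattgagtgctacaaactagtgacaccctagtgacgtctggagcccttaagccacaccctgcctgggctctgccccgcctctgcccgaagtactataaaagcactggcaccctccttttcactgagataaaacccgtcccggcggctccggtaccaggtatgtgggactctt

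Genes with the most similar pattern were sought by the Euclidean distance of log2(FPKM + 1), centred on each gene's mean over the 4 libraries. For Irf7 the nearest was Rtp4, a gene of the ISGF3 list, at a distance of 0.0548, with 4.98 and 4.61 FPKM with YFP and 13.51 and 10.01 FPKM with Cre. The next were Agt, the angiotensinogen gene (0.166), and Xaf1 (0.172). For Irf9 they were the unnamed model 2310030G06Rik (0.0445), the cadherin gene Cdh13 (0.0485) and Osgin1, an oxidative stress-induced gene (0.0502), and for Stat2 they were Pxmp2 (0.0252), a peroxisomal membrane protein gene, the macrophage scavenger receptor gene Msr1 (0.0298) and the heat shock gene Hspa1a (0.0354). For Stat3 they were 9130011E15Rik, Armcx6 and Tmem205, at distances of 0.00545 to 0.00972, and none of the 3 was called. With 4 libraries, many genes share such a pattern, and the distance is a description.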

How the data were processed

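Poly(A)-selected RNA was sequenced as single-end reads on the BGISEQ-500, per the labels' protocols. The authors deposited FPKM, 1 column per library and 2 decimals, per the file headers. Per the submitters' processing notes, Bowtie 02.2.5 was a tool and mm8 the build. Which program and annotation gave the FPKM, and whether strand was used, is not given in the sources used here. Columns were assigned through the number that matches each sample's description.

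Genes with at least 1 FPKM in at least 2 libraries were compared with limma 3.58.1 (R 4.3.3, trend and robust empirical Bayes, two-sided) on log2(FPKM + 1), with Benjamini-Hochberg adjustment over all 12046. On data simulated over 12046 genes, folds were set on FPKM + 1, which for low genes is a larger fold of FPKM. The fit called 82.1% of 67 genes changed 1.25-fold, 97.0% of 67 changed 1.5-fold and 98.5% of 66 changed 2-fold. There were 16 false and 185 true calls in all. The noise was normal with the variances of the fit itself, and far fewer genes were changed than were called in the data. These rates therefore do not show how the fit behaves if the libraries are technical replicates.

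The members and gene lists were chosen with earlier results of these data known. Named are all members, all genes of lists of up to 9 genes, and the 4 genes with the smallest p of longer lists, with the 3 genes of nearest pattern to each of Irf7, Irf9, Stat2 and Stat3. Socs3 and Osmr stand in 2 lists each. Some genes of the lists are not reported here. Of 148 list genes, 133 were in the table, 1 matched by Entrez ID. Sequences come from RefSeq (GRCm38.p6) and 3′ UTRs from GENCODE M21, on another build than mm8. Alternatives were 2 scalings, another pseudocount, 2 filters, another variance model, a replicate block and each library left out.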

Additional observations from a re-analysis of the deposited data

How the results depend on the processing

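Irf9, Stat2 and Irf3 were called under all 11 alternatives, and Irf7 under the 10 that tested it (its mean is below 5 FPKM). In each, 4 members were called, although among genes with a mean of at least 5 FPKM Ifnar2 took the place of Irf7. Log2 changes ranged from 0.92 to 1.42 for Irf7, 0.53 to 0.64 for Irf9, 0.40 to 0.56 for Stat2 and -0.50 to -0.38 for Irf3. Over the table, 3961 genes were called, 1998 higher and 1963 lower. Leaving out 1 library gave 1872 to 3560 genes, 1058 to 1878 higher and 814 to 1698 lower. The lowest counts came without Cre replicate 2, and 2384 genes were called without Cre replicate 1, fits in which the lone Cre library is assumed to vary like the YFP libraries. Same-numbered libraries shared no clear deviation from their group means (correlation -0.0313), which does not show whether they were paired. A replicate block gave 3533 genes, 3459 of them shared with the fit without it. With that block, 4 members were called and Jak2 was not (limma adjusted p = 0.05). The log2 changes of 11 uncalled genes turned sign when 1 library was left out, and the cause was not tested. They ranged from -0.045 to 0.23 for Irf2, -0.021 to 0.040 for Ifnar1, -0.085 to 0.019 for Lifr, -0.0047 to 0.043 for Jak1, -0.044 to 0.027 for Jak3, -0.063 to 0.020 for Irf2bp1, -0.0089 to 0.067 for Irf2bp2, -0.093 to 0.069 for Tank, -0.064 to 0.012 for Azi2, -0.024 to 0.082 for Irak4 and -0.057 to 0.066 for Myd88, which was also -0.0022 with median-of-ratios scaling. FPKM to 2 decimals with no counts gives no depth, so values near 0 have no floor.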

Other observations

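Of the 27 ISGF3 targets, 7 stayed below the filter and have no test. Both Cre libraries lay above both YFP libraries for 6 of them, and these were chosen after their values were seen. The same held for 3789 of the 12046 tested genes, and the share among genes below the filter was not computed. Rsad2, which encodes viperin, measured 0.30 and 0.47 FPKM with YFP and 0.81 and 0.63 FPKM with Cre. Mx2, a dynamin-like antiviral GTPase gene, measured 0.25 and 0.34 FPKM with YFP and 0.75 and 0.59 FPKM with Cre. The 2′-5′ oligoadenylate synthetase family genes Oas2, Oas3 and Oasl1 and the kinase gene Cmpk2 stayed at or below 0.69 FPKM. Mx1 was the exception, at 0.18 and 0.34 FPKM with YFP and 0.16 and 0.28 FPKM with Cre, where the groups overlapped.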
